A study of Arabidopsis thaliana with 9 samples.

Results

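The genes described here are 10 SMALL AUXIN UP RNA (SAUR) genes of Arabidopsis thaliana, taken by gene identifier from the 33977 genes in the count files. The 6 SAUR genes of a cluster on chromosome 5 are SAUR19 (AT5G18010), SAUR20 (AT5G18020), SAUR21 (AT5G18030), SAUR22 (AT5G18050), SAUR23 (AT5G18060) and SAUR24 (AT5G18080). The other 4 are SAUR62 (AT1G29430), SAUR63 (AT1G29440), SAUR64 (AT1G29450) and SAUR66 (AT1G29500), from a cluster on chromosome 1. The identity of all 10 was checked against the reference annotation, which names each a SAUR gene, among 79 genes of the family. All 10 passed the filter on low counts.

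SAUR proteins are small, short-lived plant proteins whose messages rise quickly when auxin is added. Those of the SAUR19 to SAUR24 group bind and inhibit clade D type 2C protein phosphatases, which otherwise remove the activating phosphate from the proton pumps of the plasma membrane. An active pump acidifies the cell wall, and the wall then yields, so these genes are known for promoting cell expansion in seedling stems and leaves. The SAUR61 to SAUR68 group on chromosome 1 is likewise known for promoting elongation of hypocotyls and stamen filaments.

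The 9 RNA-sequencing libraries came from aboveground tissue collected as plants of the Col-0 ecotype bolted. Of these, 3 were from plants that carry an RNA interference transgene against PPD3 (PPD3-RNAi T+) and were dwarf, 3 from PPD3-RNAi T+ plants that were large, and 3 from wild type (WT). PPD3 encodes a PsbP-domain protein of sensory plastids. All plants grew on soil in a 12-h photoperiod, each library is a separate biological replicate per the labels, and no source used here gives the promoter of the transgene or the number of lines.

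The libraries held 34660392 to 35217754 counts in genes. The targeted gene, PPD3 (AT1G76450), lay between 91.1 and 115 in WT, in CPM, that is, counts scaled by each library's size and TMM factor, between 77.9 and 108 CPM in large and between 87.6 and 128 CPM in dwarf plants, so the groups overlapped and no difference passed the test (adjusted p = 0.934 for dwarf and 0.708 for large against WT, edgeR's quasi-likelihood test). Other expressed genes within 1 Mb of PPD3 had median ratios to WT of 1.42 and 1.45 in the first and second dwarf library. These ratios were 0.961 in the third dwarf library and 0.966 to 0.985 in the large libraries. Their part in the PPD3 values was not tested. Groups are named by their labels throughout. The 6 green leaf markers, Rubisco and light-harvesting genes among them, were abundant in every library, at 23024 to 48121 CPM in sum. The 8 floral markers summed to 0.864 to 1.93 CPM and the 5 root markers to 0.341 to 0.592 CPM in WT, 0.526 to 1.37 CPM in large and 1.53 to 11.2 CPM in dwarf plants. In bulk tissue, fewer cells of a type and less RNA per cell cannot be told apart.

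The 6 chromosome 5 genes are nearly copies of each other, and their sequences are shown because reads have to be assigned between them. SAUR19 lies at chr5:5962773-5963405, SAUR20 at chr5:5966183-5966785, SAUR21 at chr5:5968352-5969190, SAUR22 at chr5:5974341-5975087, SAUR23 at chr5:5975780-5976589 and SAUR24 at chr5:5983683-5984308 (build TAIR10.1). SAUR19, SAUR20 and SAUR22 are on the minus strand and the others on the plus strand. Each has 1 exon and a coding region of 267 to 276 bases, for a protein of 88 to 91 residues. The first 60 coding bases of each, from RefSeq's TAIR10.1 assembly, are given below 5′ to 3′, with capitals for a base that differs from the most common base of the 6 genes at that position. At 1 position the leading bases were equally common, and that of SAUR19 was taken as the common one.
SAUR19: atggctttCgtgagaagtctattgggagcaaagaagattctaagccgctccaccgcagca
SAUR20: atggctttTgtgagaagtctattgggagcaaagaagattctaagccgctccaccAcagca
SAUR21: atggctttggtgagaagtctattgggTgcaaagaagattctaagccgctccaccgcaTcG
SAUR22: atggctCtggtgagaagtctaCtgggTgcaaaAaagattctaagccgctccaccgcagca
SAUR23: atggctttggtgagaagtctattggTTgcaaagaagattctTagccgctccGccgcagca
SAUR24: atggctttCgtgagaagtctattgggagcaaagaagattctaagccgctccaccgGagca

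No gene of the 6 differed from the common sequence, so defined, at more than 4 of these 60 bases. Over whole coding regions, identity among the 15 pairs ran from 87.7% for SAUR20 and SAUR22 to 95.2% for SAUR19 and SAUR24. The 4 chromosome 1 genes, at 408 to 426 coding bases, were 78.4 to 89.0% identical in their 6 pairs, and identity between the clusters was 37.3 to 42.5% in 24 pairs.

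The length of a read sets how far such copies can be separated. Reads were 100 bases long and paired. Of the 50-base words of the SAUR19 transcript, 18.5% also occur elsewhere in the genome, in SAUR20, SAUR21, SAUR23 and SAUR24, against 0.573 to 7.11% in the other chromosome 5 genes. At 100 bases no word of the 6 was shared. On chromosome 1, 8.57% of the 100-base words of SAUR62 recur in SAUR75, and 18.9% of those of SAUR63 recur elsewhere in the genome. The first 50 bases of such SAUR63 words occur in SAUR62, SAUR75 or the reference's AT1G29510. Matches over all 100 bases were not assigned to single genes. SAUR63 also lies wholly within the unnamed gene AT1G29435, which is on the other strand and had 0 counts in every library. The sequencing kit leaves strand unmarked, so reads of SAUR63 and of such a transcript cannot be told apart, and the level of SAUR63 is uncertain for both reasons.

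In WT, the 10 genes were expressed at low to middling levels. In RPKM, CPM divided by the length of the transcript in kb, SAUR62 stood highest at 8.64 ± 1.82 (SD, n = 3), then SAUR20 at 8.21 ± 1.73, SAUR24 at 8.08 ± 1.02, SAUR21 at 6.82 ± 0.810, SAUR63 at 6.79 ± 1.68 and SAUR64 at 6.30 ± 1.09 RPKM. The levels of these 6 overlapped between libraries, so their order is not resolved. Below them by mean came SAUR66 at 4.75 ± 0.864, SAUR23 at 3.98 ± 0.258, SAUR22 at 2.82 ± 0.542 and SAUR19 at 0.932 ± 0.264 RPKM.

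The libraries of SAUR66 overlapped with those of SAUR63 above it and of SAUR23 below it. SAUR22 lay below SAUR66 and SAUR23. SAUR19 was separated from all the others, its highest WT library (1.17 RPKM) lying below the lowest of SAUR22 (2.31 RPKM). The median WT level over the genes tested was 8.45 RPKM, and SAUR62 was the 1 member above it. Taken per kilobase of coding region instead, 3 of the 10 kept their place in the order and SAUR21 came first at 21.4 RPKM.

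The share of each copy in the summed RPKM of the chromosome 5 cluster is given as a description, with no test. SAUR24 made up 26.2 ± 1.97% of the summed RPKM of the 6 genes in WT, 30.1 ± 1.57% in large and 29.7 ± 3.33% in dwarf plants (SD, n = 3). SAUR20 made up 26.7 ± 5.63%, 22.9 ± 1.88% and 26.8 ± 2.49%, and SAUR19 never more than 6.42% in a library. SAUR22 made up 9.10 ± 0.982% in WT, 8.46 ± 2.73% in large and 6.21 ± 2.65% in dwarf plants. The large libraries lay above the WT libraries for SAUR24, the dwarf libraries lay below the WT libraries for SAUR22, and the groups overlapped for SAUR20.

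**Figure D1:**
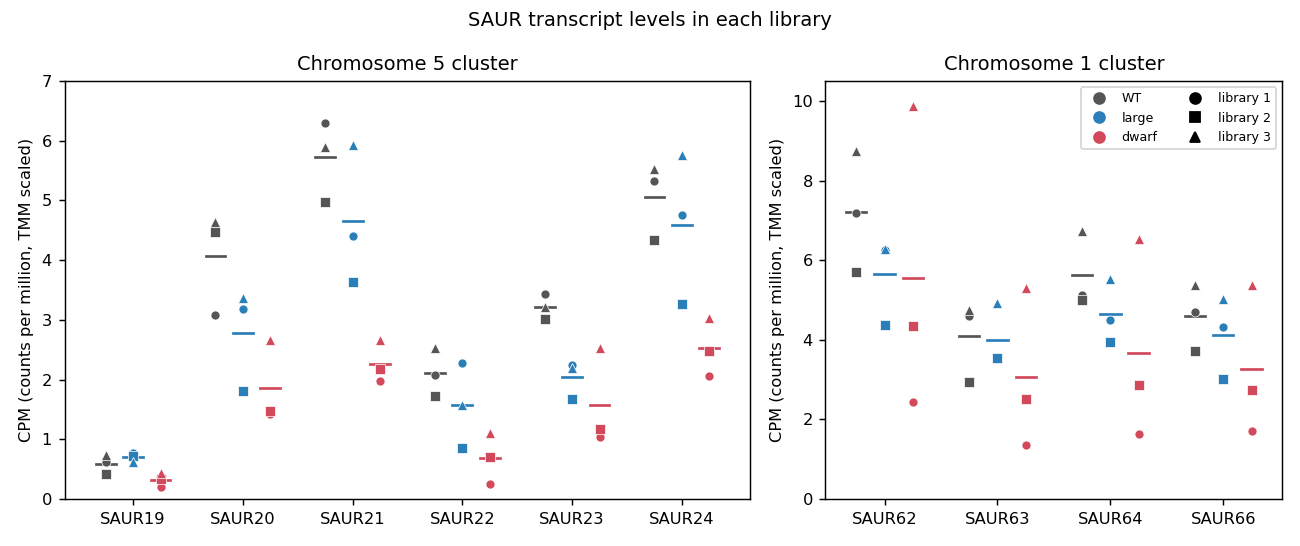
CPM of each SAUR gene (vertical axis, linear, from 0) in the 9 libraries, with WT in grey, large in blue and dwarf in red; marker shape gives the library and the short bar the group mean. For SAUR20 to SAUR24 the 3 dwarf libraries lie below the 3 WT libraries; on chromosome 1 the third dwarf library reaches or passes the WT range.

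The comparison of dwarf with WT plants asks which transcripts differ in the RNAi plants that stayed small. SAUR21 and SAUR24 fell in dwarf plants, by 2.52-fold and 2.01-fold, and the fitted change was negative for all 10 genes. SAUR20, SAUR22 and SAUR23 lay below WT in every dwarf library without passing the threshold. The 4 chromosome 1 genes overlapped with WT. Of all 19870 genes tested, 2.22% were called lower and 6.54% higher in dwarf plants, and 43.6% had a negative change.

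SAUR21 stood at 1.98, 2.17 and 2.65 CPM in the 3 dwarf libraries, at 4.41, 3.64 and 5.93 CPM in the large and at 6.30, 4.97 and 5.89 CPM in the WT libraries. The dwarf libraries lay below all 6 others, and the large and WT libraries overlapped. The log2 fold change between dwarf and WT was -1.34 (SE 0.21, 95% interval -1.81 to -0.86, adjusted p = 0.00986, edgeR's quasi-likelihood test with Benjamini-Hochberg adjustment over all genes tested).

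SAUR24 stood at 2.06, 2.48 and 3.02 CPM in dwarf, 4.75, 3.26 and 5.76 CPM in large and 5.33, 4.33 and 5.52 CPM in WT plants. Here too every dwarf library was below the other 6, while large and WT overlapped. Its log2 fold change between dwarf and WT was -1.01 (SE 0.24, interval -1.54 to -0.47, adjusted p = 0.0343, edgeR).

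SAUR20 stood at 1.43, 1.48 and 2.65 CPM in dwarf, 3.19, 1.81 and 3.36 CPM in large and 3.08, 4.48 and 4.64 CPM in WT plants. The dwarf and WT libraries did not overlap, and the second large library fell within the dwarf range. The log2 fold change of -1.14 (SE 0.33) between dwarf and WT had an edgeR adjusted p of 0.0644.

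SAUR23 stood at 1.04, 1.17 and 2.53 CPM in dwarf, 2.25, 1.67 and 2.19 CPM in large and 3.43, 3.01 and 3.22 CPM in WT plants. It was the 1 gene of the 10 for which both RNAi groups lay wholly below WT. The log2 fold change was -1.03 (SE 0.32, edgeR adjusted p = 0.0814) in dwarf against WT.

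SAUR22 stood at 0.247, 0.697 and 1.11 CPM in dwarf, 2.28, 0.849 and 1.58 CPM in large and 2.07, 1.73 and 2.53 CPM in WT plants. Its fitted change between dwarf and WT was the most negative of the 10, -1.63, but with an SE of 0.51 (edgeR adjusted p = 0.0817). The dwarf libraries lay below WT, and the second large library fell within the dwarf range. The counts behind these values were small, 9 to 36 reads in the dwarf libraries.

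SAUR19, the least abundant copy, rested on 7 to 27 reads per library. It stood at 0.192, 0.335 and 0.432 CPM in dwarf, 0.768, 0.712 and 0.614 CPM in large and 0.621, 0.410 and 0.740 CPM in WT plants. The third dwarf library overlapped with WT, and the log2 fold change was -0.89 (SE 0.37, edgeR adjusted p = 0.168).

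On chromosome 1, the spread between dwarf libraries was wide. SAUR62 stood at 2.44, 4.35 and 9.87 CPM in dwarf, 6.26, 4.38 and 6.28 CPM in large and 7.19, 5.70 and 8.74 CPM in WT plants. SAUR64 stood at 1.62, 2.87 and 6.54 CPM in dwarf, 4.49, 3.94 and 5.52 CPM in large and 5.12, 5.003 and 6.74 CPM in WT plants. For both genes, the first and the second dwarf library were under the WT range, and the third was within or above it.

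SAUR63 stood at 1.35, 2.51 and 5.31 CPM in dwarf, 3.53, 3.53 and 4.91 CPM in large and 4.59, 2.93 and 4.75 CPM in WT plants. SAUR66 stood at 1.70, 2.73 and 5.37 CPM in dwarf, 4.32, 3.01 and 5.03 CPM in large and 4.70, 3.72 and 5.38 CPM in WT plants. For both genes, the first and the second dwarf library were below every WT library and the third was not. The log2 fold changes of the 4 genes between dwarf and WT ran from -0.38 for SAUR62 to -0.62 for SAUR64, with edgeR adjusted p between 0.393 and 0.620. Single dwarf libraries set these values. Without the first they were -0.02 for SAUR62, -0.07 for SAUR63, -0.26 for SAUR64 and -0.19 for SAUR66, and without the third they were -1.09, -1.09, -1.32 and -1.05, with adjusted p between 0.0124 and 0.0481.

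Counted over the 10 genes, 2 were called lower and 0 higher in dwarf plants, against 2.22% and 6.54% of all genes tested. All 3 dwarf libraries lay below all 3 WT libraries for 5 of the 10, against 12.2% of all genes tested. The median log2 fold change was -1.08 for the chromosome 5 genes and -0.46 for the chromosome 1 genes, beside 0.05 over all genes tested. The count of calls turned on single libraries. Without the third dwarf library it was 9 of the 10, all but SAUR19, with 4477 calls over all genes in place of 1740, and without the first WT library it was 0, with 266 calls over all genes and an edgeR adjusted p of 0.0529 for SAUR21. Leaving out the first or the second dwarf, the second or the third WT, or the first large library each left 1 call, SAUR21. Calls over all genes in these fits were, in that order, 1207, 1110, 293, 724 and 964. The count of members called was 5 by DESeq2's Wald test, with 3184 calls over all genes, and 6 by limma voom with quality weights, with 4626. When only these groups were fitted it was 1, with 467 calls over all genes.

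**Figure D2:**
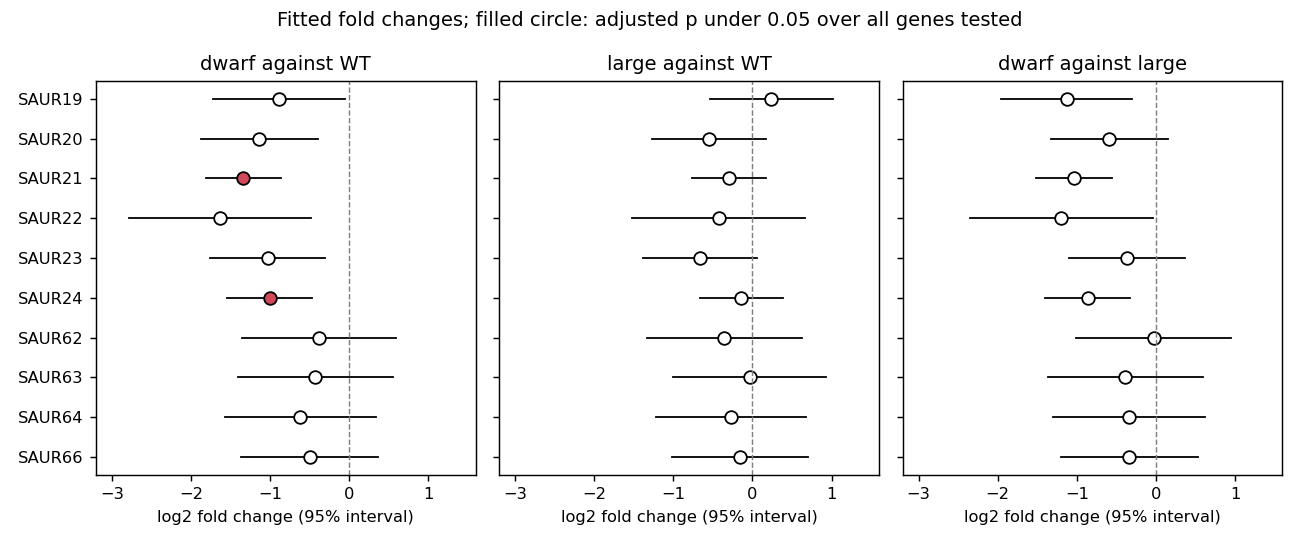
Fitted log2 fold changes (horizontal axis) of the 10 genes with 95% intervals in the 3 comparisons, from edgeR on all 9 libraries; a filled circle marks an adjusted p under 0.05. Only SAUR21 and SAUR24 in dwarf against WT are filled, and the intervals of the chromosome 1 genes cross 0 in all 3 comparisons.

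The comparison of large with WT plants asks the same of RNAi plants that did not stay small. None of the 10 genes was called in it by edgeR, while 0.327% of all genes tested were called lower and 3.89% higher. The fitted change was negative for 9 of the 10, with a median of -0.28 beside 0.01 over all genes. SAUR19 had the positive value, 0.24 (interval -0.54 to 1.02). SAUR23 had the most negative, -0.66 (interval -1.38 to 0.06, adjusted p = 0.312), and its large libraries all lay below WT, which held for 1 of the 10 genes and for 13.9% of all genes tested. SAUR23 was called lower by limma voom with quality weights, with 4192 calls over all genes in place of 838. It was also called lower when large and WT alone were fitted in edgeR, with 2205 calls over all genes. For SAUR21 and SAUR24, the genes that fell in dwarf plants, the log2 fold changes between large and WT were -0.30 (interval -0.76 to 0.17) and -0.14 (interval -0.66 to 0.38).

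Dwarf and large plants carry the same transgene and were compared directly. None of the 10 genes passed the edgeR threshold, under which 0.377% of all genes tested were called lower and 0.272% higher in dwarf plants. All 10 fitted changes were negative, with a median of -0.49 beside 0.01 over all genes. The dwarf libraries lay below the large ones without overlap for SAUR19, SAUR21 and SAUR24, 3 of the 10 genes, against 11.2% of all genes tested.

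SAUR21 was 2.05-fold lower in dwarf than in large plants in the fit (log2 fold change -1.04, interval -1.52 to -0.56, edgeR adjusted p = 0.0617), and SAUR24 was 1.82-fold lower (-0.86, interval -1.40 to -0.33, adjusted p = 0.105). SAUR19 and SAUR22 had log2 fold changes of -1.13 and -1.20 (edgeR adjusted p = 0.144 and 0.236). Here the calls numbered 2 by DESeq2's Wald test (SAUR21 and SAUR24), 3 by limma voom, and 4 in edgeR without the third dwarf library (SAUR21, SAUR23, SAUR24 and SAUR64). Over all genes the calls rose in the same fits from 129 to 1706, 3781 and 3236. The 3 comparisons share libraries, so they are not independent of each other.

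The 10 genes ranked the libraries alike. The first dwarf library was the lowest of all 9 for 10 of the 10 genes, and the third was the highest of the dwarf libraries for 10 of 10. Among the large libraries, the second was the lowest for 8 of the 10. Across the 9 libraries, the log2 CPM of each chromosome 5 gene followed the mean of the other 5 with a Pearson r of 0.76 to 0.96, and the chromosome 1 genes followed the chromosome 5 mean at 0.77 to 0.86. These are descriptions over 9 libraries that share group differences and depth.

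Leaf markers differed between the same libraries. The 5 markers of senescing leaf, among them the protease gene SAG12 and the transcription factor gene ORE1, summed to 106 to 138 CPM in WT, and to 459, 199 and 73.0 CPM in the first, the second and the third dwarf library. They summed to 90.3, 277 and 85.2 CPM in the large libraries. Single markers did not all follow the sums. In the second dwarf library, SAG12, SAG13 and WRKY53 were above every WT library, and NYE1 matched the highest, at 19.9 CPM. ORE1 was below every WT library there, at 3.23 CPM beside 4.91 to 6.32 CPM in WT. The 6 green leaf markers summed to 23024, 30963 and 48121 CPM in the dwarf libraries, beside 37621 to 42844 CPM in WT. The dwarf library with the lowest SAUR levels thus had the highest senescence and the lowest green leaf sum, and the second large library had the highest senescence sum of its group. None of the 5 senescence or 6 green leaf markers was called in a comparison. Of 6 xylem markers, which summed to 63.7 to 98.4 CPM in dwarf and 93.5 to 98.9 CPM in WT plants, 1, the protease gene XCP1, fell in dwarf plants (log2 fold change -0.76, edgeR adjusted p = 0.00992). The 2 root markers that could be tested were not called, although the root sum was higher in every dwarf than in every WT library. The part of these tissues in the SAUR values was not tested.

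The genes around the chromosome 1 cluster were also raised in 1 library. The median ratio to WT of the 256 to 257 other expressed genes within 1 Mb was 1.40 in the third dwarf library and 0.94 to 1.00 in all the others. Around the chromosome 5 cluster, the same median over 345 to 348 genes lay between 0.95 and 1.00 in all 9 libraries. The summed CPM of the 4 chromosome 1 genes was 7.11, 12.5 and 27.1 in the dwarf libraries and 17.3 to 25.6 in WT. As a ratio to the WT mean, the third dwarf library stood at 1.26, and at 0.902 once divided by its neighbourhood. The first and second stood at 0.350 and 0.583 on that scale. With the neighbourhood step taken out of the counts model, the 4 log2 fold changes between dwarf and WT were -0.62 for SAUR62, -0.65 for SAUR63, -0.85 for SAUR64 and -0.71 for SAUR66, with edgeR adjusted p of 0.135 to 0.279. The calls of SAUR21 and SAUR24 held in that fit, at adjusted p of 0.0107 and 0.0405.

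The summed CPM of the 6 chromosome 5 genes was 6.94, 8.33 and 12.4 in the dwarf libraries, 17.6, 11.9 and 19.4 in the large and 20.8, 18.9 and 22.5 in the WT libraries. The second large library was thus below the third dwarf library.

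**Figure D3:**
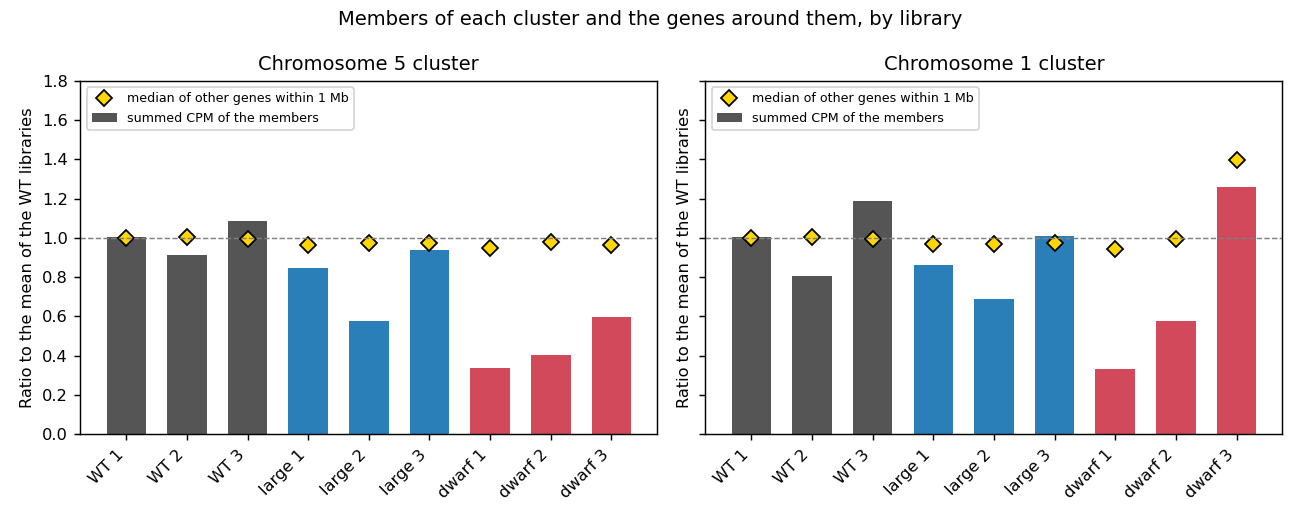
Bars give the summed CPM of the members of each cluster as a ratio to the WT mean, by library; diamonds give the median ratio of the other expressed genes within 1 Mb. On chromosome 5 the diamonds stay near 1 while the dwarf bars lie between 0.334 and 0.597; on chromosome 1 both the bar (1.26) and the diamond (1.40) of the third dwarf library are above 1.

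None of the genes listed here that lie between the SAUR copies was called. Other annotated genes there are not listed. On chromosome 5, AT5G18040, AT5G18065 and DRT101 had log2 fold changes between dwarf and WT of -0.33, -0.28 and -0.10 (edgeR adjusted p = 0.157, 0.380 and 0.700). On chromosome 1, AT1G29465 and AT1G29470 stood at 0.40 and -0.13, with adjusted p of 0.462 and 0.772. The remaining SAUR genes of that cluster were not called either, at -0.42 for SAUR61, -0.15 for SAUR65 and -0.39 for AT1G29510, a copy the reference names SAUR68, and AT1G29490 was too low to test.

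**Figure D4:**
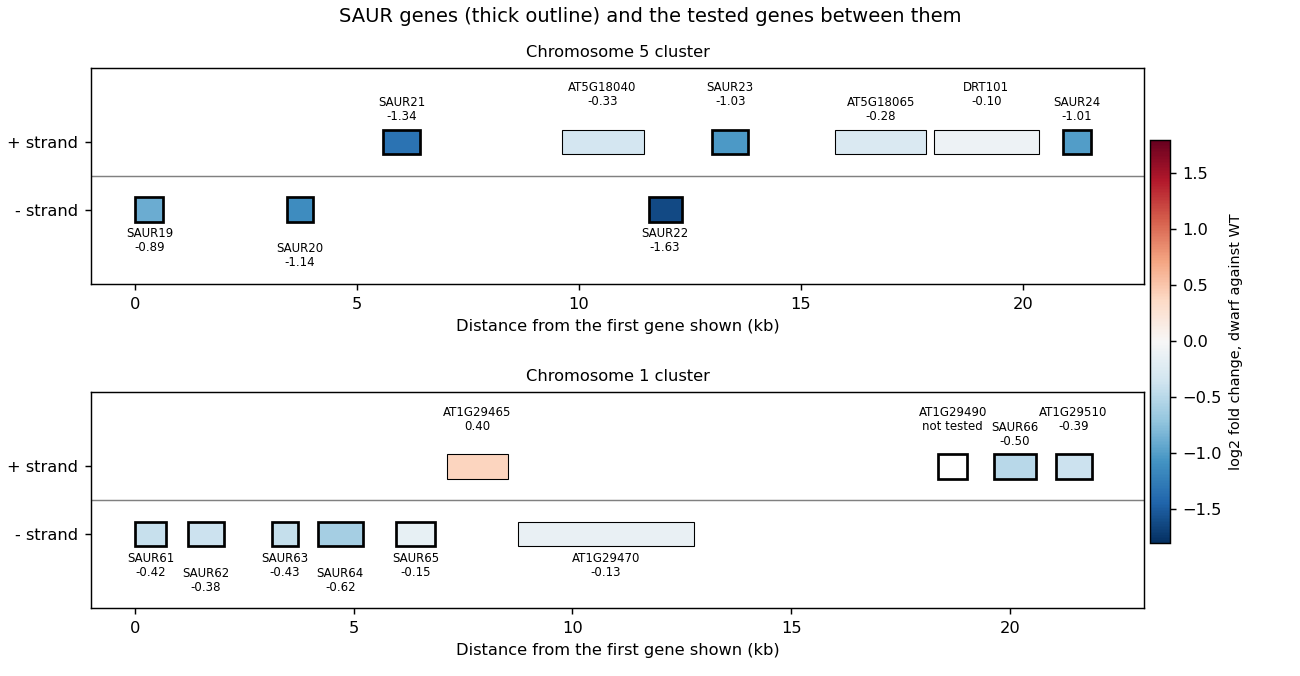
Both clusters drawn to scale by distance from the first gene shown (kb), plus strand above and minus strand below the line, coloured by the log2 fold change of dwarf against WT that is printed at each gene. The 6 SAUR genes on chromosome 5 lie between -0.89 and -1.63, and the other genes drawn between them, thin outlines, between -0.10 and -0.33.

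Of the 69 other SAUR genes, 49 could be tested. In dwarf against WT, 2 were called higher and 0 lower by edgeR, with a median log2 fold change of 0.10 and 22 of 49 negative, which is near the shares of all genes given above (6.54% higher, 2.22% lower and 43.6% negative). SAUR53 rose from 2.07 ± 0.0413 CPM in WT to 3.89 ± 0.824 in dwarf plants (log2 fold change 0.91, adjusted p = 0.0236), and SAUR12 from 0.270 ± 0.0964 to 0.686 ± 0.0384 CPM (1.33, adjusted p = 0.0415). In large against WT, 3 rose and 0 fell, namely SAUR53 (1.02, adjusted p = 0.0277), SAUR31 (0.75, adjusted p = 0.0211) and SAUR77 (2.11, adjusted p = 0.0474). SAUR77 was very low, at 0.106 ± 0.0810 CPM in WT and 0.473 ± 0.0502 CPM in large plants. None of the 49 was called in dwarf against large. The genes within 1 Mb of SAUR31, on chromosome 4, had median ratios to WT of 1.41 to 1.87 in all 6 RNAi libraries, and those around SAUR53 stood at 1.41 in the third dwarf library. Their part in these values was not tested.

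SAUR29, on chromosome 3, was the SAUR gene nearest to a lower call, and it was chosen after its value was seen. It stood at 2.28, 2.51 and 3.42 CPM in dwarf, 7.11, 4.49 and 7.48 CPM in large and between 4.58 and 5.56 CPM in WT plants. Its log2 fold change was -0.87 in dwarf against WT (edgeR adjusted p = 0.0511) and -1.22 in dwarf against large (adjusted p = 0.0534). The genes around it had median ratios to WT of 1.29 to 1.32 in the large libraries and of 0.965 to 1.23 in the dwarf libraries. SAUR26, SAUR27 and SAUR28 lie next to SAUR29, and each likewise had all dwarf libraries below all WT libraries. Their log2 fold changes in dwarf against WT were -0.60, -1.09 and -1.39, none called (edgeR adjusted p = 0.197, 0.0716 and 0.102). In dwarf against large they were -0.87, -1.14 and -1.73, also not called. SAUR28 was low, at 0.358 ± 0.125 CPM in dwarf and 0.942 ± 0.358 CPM in WT plants.

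**Figure D5:**
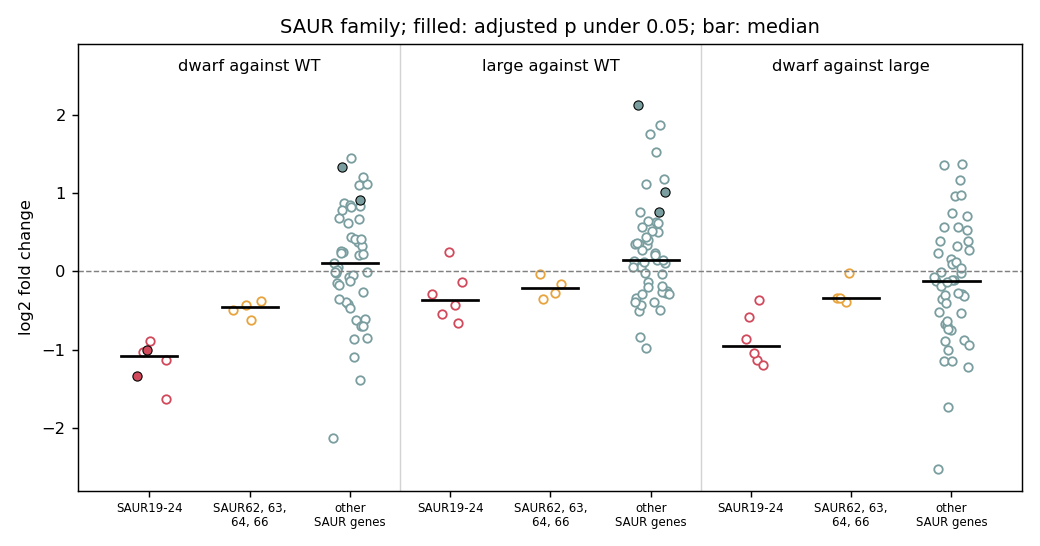
Log2 fold change (vertical axis) of each tested SAUR gene in the 3 comparisons, with the chromosome 5 members, the chromosome 1 members and the 49 other SAUR genes in separate columns; bars are medians and filled points have an adjusted p under 0.05. In dwarf against WT the medians are -1.08, -0.46 and 0.10.

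Upstream of the SAUR genes are the auxin receptors of the TIR1 and AFB family and the activating auxin response factors. Of these 11 genes, 2 rose and 0 fell in dwarf against WT, where 6.54% of all genes tested were called higher and 2.22% lower. AFB1 rose from 29.7 ± 1.58 CPM in WT to between 54.9 and 63.4 CPM in the dwarf libraries (log2 fold change 1.01, edgeR adjusted p = 0.00551), but the genes around it on chromosome 4 had median ratios of 1.43 to 1.96 in the dwarf libraries. AFB2 rose by 0.31 (adjusted p = 0.0341), with a neighbourhood of 0.965 to 0.979. AFB1 was the 1 gene of the list called in large against WT, at 0.97. Of 5 auxin synthesis genes, 0 were called in any of the 3 comparisons.

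Other early auxin-induced genes, the Aux/IAA repressors and GH3 conjugating enzymes, had 14 of 15 members tested. In dwarf against WT, 11 were negative, with a median of -0.49, and 1 was called lower. Over all genes tested, 43.6% were negative, with a median of 0.05, and 2.22% were called lower. The list gene called was IAA7, an Aux/IAA repressor, at 52.6 ± 8.54 CPM in dwarf and 83.2 ± 1.95 CPM in WT plants (log2 fold change -0.66, edgeR adjusted p = 0.0335). None was called in the other comparisons.

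Among 17 tested transcription factors of growth and their DELLA antagonists, 3 fell and 1 rose in dwarf against WT. Of all genes tested, 2.22% were called lower and 6.54% higher. PRE2, a helix-loop-helix protein that favours elongation, fell from 3.40 ± 0.329 to 1.53 ± 0.557 CPM (log2 fold change -1.15, edgeR adjusted p = 0.0300). PIF4, a light- and temperature-regulated activator of elongation, fell from 191 ± 7.49 to 145 ± 4.17 CPM (-0.40, adjusted p = 0.0386), and RGL1, a DELLA repressor of growth, from 21.0 ± 1.77 CPM to between 8.87 and 15.4 CPM (-0.77, adjusted p = 0.0316). BZR1, the brassinosteroid-activated factor, rose by 0.62 (adjusted p = 0.0309), and the genes around it stood at 1.44 and 1.47 times WT in the first and second dwarf library. None of the 17 was called in large against WT or in dwarf against large.

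Downstream, the targets of SAUR proteins were not called. Of 9 clade D phosphatase genes tested, 0 passed in any comparison, with medians between -0.12 and 0.00, and of 9 plasma membrane proton pump genes tested, 0 passed, with medians between -0.02 and 0.10. The pumps summed to 1270 to 1420 CPM in WT and 1441 to 1731 CPM in dwarf plants. Of 11 circadian clock genes, listed because SAUR levels vary over the day, 0 were called in any comparison, with medians between 0.04 and 0.18.

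The genes outside the family whose profile over the 9 libraries was most like the mean of the 6 chromosome 5 genes were taken from 14676 candidates by Pearson r of log2 CPM. They were EXP3, the expansin gene also called EXPA3, whose product loosens cell walls (r = 0.992), the unnamed AT5G62350 (0.991), GAE6, an epimerase gene for pectin precursors (0.991), and the unnamed AT5G01790 (0.989) and AT3G50120 (0.986). EXP3 stood at 22.3 ± 5.10 CPM in dwarf, 32.8 ± 5.10 in large and 35.7 ± 2.16 in WT plants. GAE6 stood at 239 ± 42.8, 307 ± 27.3 and 342 ± 16.8 CPM in the same order.

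The promoters were read to see what the genes share upstream. Windows from 250 bases before to 50 after the annotated start were searched on both strands for CACATG, an E-box, for the G-box CACGTG, and for the auxin response elements TGTCTC and TGTCGG. No motif letters overlap between hits of different motifs in the members shown. CACATG was found in 7 of the 10 members, in 37.7% of the 69 other SAUR genes and in 12.9% of 27444 promoters. CACGTG was in 0 of the 10 and in 7.68% of all promoters. TGTCTC was in 4 of the 10 (SAUR20, SAUR22, SAUR62 and SAUR66) and in 14.2% of all promoters, and TGTCGG was in SAUR63 and in 5.12% of all promoters.

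The sequences below are the 200 bases before the start of SAUR21 and SAUR24, the genes called in dwarf against WT, with SAUR22, the most negative, and SAUR63 from the other cluster. They are given 5′ to 3′ on the strand of the gene, from RefSeq's TAIR10.1 assembly, with the motifs above in capitals on either strand (CATGTG is CACATG and GAGACA is TGTCTC read on the other strand). They lie at chr5:5968152-5968351 (plus strand), chr5:5983483-5983682 (plus), chr5:5975088-5975287 (minus) and chr1:10305109-10305308 (minus).
SAUR21: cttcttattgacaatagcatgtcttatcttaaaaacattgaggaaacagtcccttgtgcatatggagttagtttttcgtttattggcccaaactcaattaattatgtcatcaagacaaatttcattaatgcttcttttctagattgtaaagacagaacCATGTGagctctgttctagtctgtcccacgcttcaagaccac
SAUR24: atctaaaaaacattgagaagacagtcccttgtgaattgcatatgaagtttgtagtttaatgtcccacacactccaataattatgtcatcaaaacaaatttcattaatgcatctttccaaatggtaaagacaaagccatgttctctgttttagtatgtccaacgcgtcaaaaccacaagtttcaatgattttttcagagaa
SAUR22: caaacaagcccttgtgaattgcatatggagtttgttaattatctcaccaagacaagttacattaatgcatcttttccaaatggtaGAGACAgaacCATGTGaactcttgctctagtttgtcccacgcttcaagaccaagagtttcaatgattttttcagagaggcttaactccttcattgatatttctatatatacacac
SAUR63: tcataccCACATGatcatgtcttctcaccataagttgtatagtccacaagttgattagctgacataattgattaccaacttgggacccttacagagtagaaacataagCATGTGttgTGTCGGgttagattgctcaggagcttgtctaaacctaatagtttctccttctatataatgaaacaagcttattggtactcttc

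SAUR21, which fell in dwarf plants, holds CACATG once in this stretch, and SAUR24, which also fell, holds none of the 4 motifs in it. A match is a description of letters, not of a bound site.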

How the data were processed

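The authors deposited whole-number read counts per gene, 1 file per library, with no normalization. STAR 2.7.0a, Trim Galore 0.4.1 and the TAIR10 build are named in the submitters' processing notes, and no source used here names the counting program. Per the labels' protocols, libraries were made with a TruSeq version 2 kit. That kit leaves strand unmarked. Lines that name no gene (0.642 to 0.900% of reads outside genes and 0.228 to 0.309% ambiguous) were left out.

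In R 4.3.3, edgeR 4.0.16 was run on all 9 libraries and 3 groups, with TMM factors of 0.935 to 1.05, filterByExpr, the quasi-likelihood test and Benjamini-Hochberg adjustment over 19870 genes, at a threshold of 0.05. DESeq2 1.42.0 and limma 3.58.1 were alternatives. Each SE is the size of the log2 fold change divided by the root of its F statistic. CPM are TMM scaled. The pipeline was tested on simulated data. Members and lists were chosen with earlier results of these data known.

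Named genes are the members, the called genes of each list (at most 4) and of the other SAUR genes (at most 3), the 5 most alike, and cluster neighbours. SAUR29 and the SAUR genes next to it were named besides. Positions and sequences are from RefSeq's TAIR10.1, which matched 32548 identifiers. A ready table of promoters had been planned, and windows were instead read from that genome and its annotation. AT5G01830, to which the reference also gives the symbol SAUR21 but describes as another protein family, was not counted as a SAUR gene. With 3 biological replicates per group by the labels, p-values measure the spread between these samples. Identical libraries were looked for by chi-square per degree of freedom (12.5 to 184 within groups) and none were found.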

Additional observations from a re-analysis of the deposited data

How the results depend on the processing

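The 3 comparisons were refitted under 18 alternatives. The members called in dwarf against WT, 2 in the report, numbered 0 to 9 when 1 library was left out, 5 by DESeq2's Wald test, 6 by limma voom with quality weights and 1 with only the 2 groups compared. In large against WT, 0 in the report, there was 1 by voom and 1 with only 2 groups, and 0 in every fit without 1 library. In dwarf against large, 0 in the report, there were 2 by DESeq2, 3 by voom and 0 to 4 without 1 library. Replicate numbers did not pair the libraries, since correlations of same-numbered deviations ran from -0.24 to 0.43. With replicate number as a block, 2, 0 and 0 members were called, and 1263, 618 and 0 genes over all. Over all genes, calls ran from 266 to 4626 in dwarf against WT, 9 to 4192 in large against WT and 0 to 3781 in dwarf against large. No member reversed in dwarf against WT. In fits without 1 library, the log2 fold change between large and WT ran from -0.34 to 0.054 for SAUR24, from -0.33 to 0.023 for SAUR66 and from -0.23 to 0.086 for SAUR63, which stood at 0.0046 with the neighbourhood step taken out. In dwarf against large it ran from -0.73 to 0.33 for SAUR62 and from -1.05 to 0.013 for SAUR64. By coding length, 3 of 10 members kept their place in the level order. Low counts limit SAUR19 and SAUR22 most. The cause of these shifts was not tested.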
